A study of Mus musculus with 10 samples.

Results

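The genes that hold epithelial cells together were followed through the bud to cap transition of the mouse first molar. The 8 genes were taken by name and Ensembl ID, with earlier results of these data known, and make up 8 of the 27528 genes measured. They are the cadherins *Cdh1*, *Cdh3* and *Cdh2*, the immunoglobulin-type adhesion gene *Nectin1*, the epithelial surface gene *Epcam*, the desmosome genes *Dsp* and *Perp*, and the tight junction gene *Tjp3*. Of these, *Cdh2* is the one not regarded as an epithelial gene.

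Whole first molar tooth germs were dissected from wild type NMRI mouse embryos, an outbred stock, at E13.5, the bud stage, or E14.5, the cap stage. Each sample is a pool of 12 to 18 germs with little surrounding tissue, measured on the Affymetrix Mouse Exon 1.0 array, whose probes lie in exons. The 5 arrays at each stage are biological replicates numbered 1, 2, 4, 5 and 6. Epithelium and mesenchyme were not separated, and no gene was altered at either stage.

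The tooth germ consists of an epithelium that folds into the underlying neural crest derived mesenchyme. Epithelial cells adhere to each other through adherens junctions, desmosomes and tight junctions. In adherens junctions, cadherins of neighbouring cells bind each other outside the cell, and catenins tie their tails to actin inside it. E-cadherin (*Cdh1*) and P-cadherin (*Cdh3*) are typical of epithelia, whereas N-cadherin (*Cdh2*) is typical of mesenchymal, neural and muscle cells.

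Signals are given on the log2 scale, so that a difference of 1 unit is a doubling. Array medians ranged from 5.06 to 5.22 and the spread of signals within an array, as SD over genes, from 1.51 to 1.74. Arrays of a stage correlated with each other at 0.975 to 0.994 over genes, which do not count as replicates. Among the E13.5 arrays, replicate 1 had the lowest signal for 5 of 7 dental epithelium markers, *Foxi3* by the widest margin, but the highest for *Fgfr2*. The mean log2 signal of the 7 was 6.38 on that array, against 6.73 to 6.87 on the other 4. Changes of the 8 genes are therefore also given without it. The signal of a gene depends on its probes as well as its RNA, so each gene was compared with itself between stages.

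Expression of all 8 genes changed from bud to cap. In the cap 7 were higher and *Cdh2* was lower, with every adjusted p (limma, Benjamini-Hochberg over all 27528 genes) below 0.05. That threshold was passed by 7.85% of all genes, 4.36% higher and 3.49% lower at E14.5. None of the 8 genes had overlapping stages, and 8.84% of all genes lacked overlap too, 4.82% being higher and 4.01% lower at E14.5. The median change of the 8 genes was 0.62, against -0.0145 for all genes tested. Because the 8 genes were taken with earlier results of these data known, these contrasts with all genes are descriptions and not tests. Of the 8 genes, 6 passed without E13.5 replicate 5, the smallest number when any array was left out, and all 8 passed without E13.5 replicate 1.

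**Figure D1:**
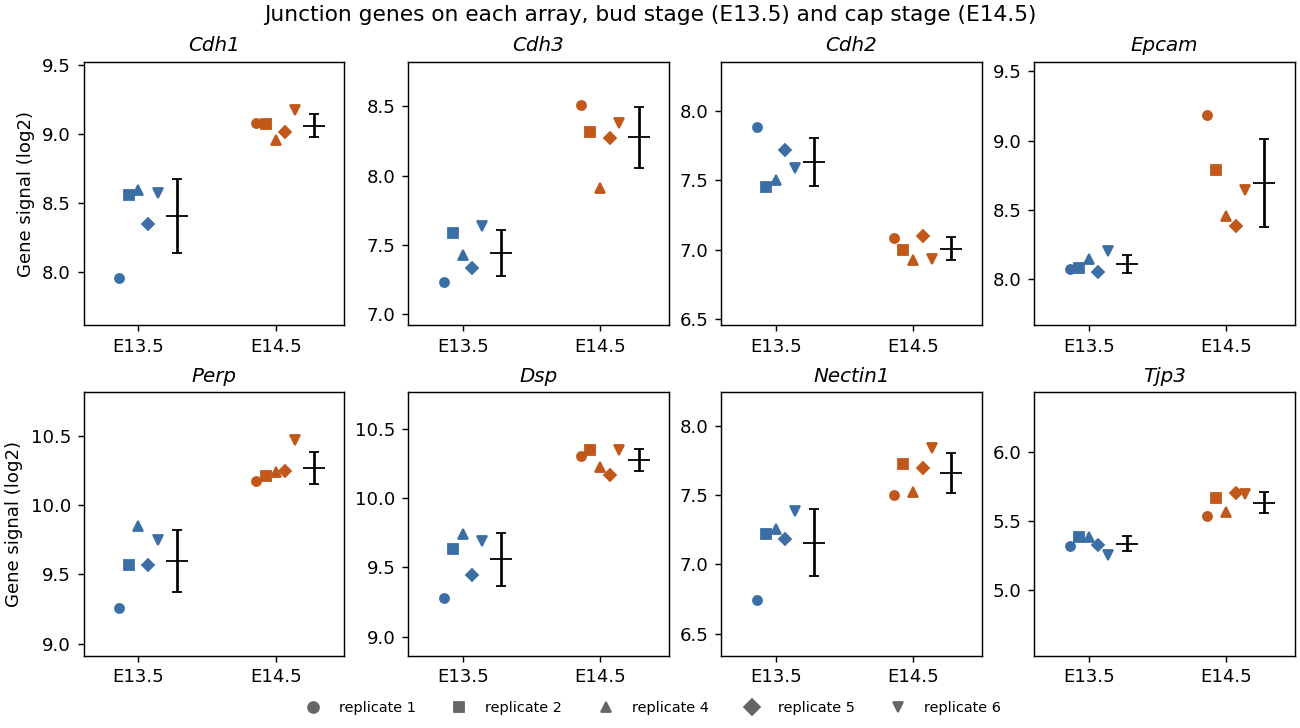
Signal (log2) of the 8 cadherin and junction genes on each of the 10 arrays, by stage; marker shapes stand for replicate numbers, and the black bars give the mean ± SD of 5 arrays. Each panel spans 1.9 log2 units. The stages do not overlap in any panel, and *Cdh2* alone is lower at E14.5.

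*Cdh1* (ENSMUSG00000000303) encodes E-cadherin, the main cadherin of epithelial adherens junctions. It read 7.96, 8.56, 8.59, 8.35 and 8.58 on E13.5 replicates 1, 2, 4, 5 and 6, and 9.08, 9.07, 8.96, 9.01 and 9.17 on the same replicate numbers at E14.5. The cap stage arrays lay close together, whereas replicate 1 was the lowest at the bud stage. The mean went from 8.41 ± 0.27 to 9.06 ± 0.082 (SD, n = 5 arrays per stage). The rise was 0.65 ± 0.12 (SE, limma adjusted p = 0.0043), or 1.57-fold. Without E13.5 replicate 1 it was 0.54 and was kept (limma adjusted p = 0.00149).

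*Cdh3* (ENSMUSG00000061048) encodes P-cadherin, and is in the study's dispensable category, genes with no reported tooth phenotype when lost. It had the largest change of the 8 genes, 0.83 ± 0.12 (SE, limma adjusted p = 0.000806), or 1.78-fold. Its signals were 7.23, 7.58, 7.43, 7.33 and 7.64 at E13.5 and 8.51, 8.31, 7.91, 8.27 and 8.38 at E14.5, in the order of replicates 1, 2, 4, 5 and 6. Replicate 4 was the lowest array at the cap stage, yet above every bud stage array. The change was 0.78 without E13.5 replicate 1 and 0.92 without E14.5 replicate 4.

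*Cdh2* (ENSMUSG00000024304) encodes N-cadherin and went the other way. Its signals were 7.88, 7.46, 7.50, 7.72 and 7.59 on E13.5 replicates 1, 2, 4, 5 and 6, and 7.08, 7.00, 6.92, 7.10 and 6.93 at E14.5. Bud stage replicate 1, the lowest array for *Cdh1*, was the highest for *Cdh2*. Mean signal was 7.63 ± 0.17 in the bud and 7.01 ± 0.081 in the cap (SD, n = 5). *Cdh2* thereby changed by -0.62 ± 0.087 (SE, limma adjusted p = 0.000865). At E13.5 the signal was thus 1.54-fold that at E14.5. The change was -0.56 without E13.5 replicate 1.

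Whether the cadherins changed unequally was asked with the difference of 2 genes on the same array, from which probe effects drop out when stages are compared. For *Cdh1* minus *Cdh2*, the differences were 0.078, 1.10, 1.09, 0.63 and 0.98 on E13.5 replicates 1, 2, 4, 5 and 6, and 1.99, 2.08, 2.03, 1.91 and 2.24 at E14.5. The gap widened by 1.27, which is a 2.42-fold change of the ratio (exact permutation p = 0.00794, two-sided, adjusted 0.0119 over 3 gaps). With 5 arrays against 5, 0.00794 is the smallest p this design allows. That p was fixed once *Cdh1* rose and *Cdh2* fell without overlap of the stages, so it adds nothing to those separate changes. The widening ranged between 1.10, without E13.5 replicate 1, and 1.36 when single arrays were left out.

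For *Cdh3* minus *Cdh2* the gap was -0.19 ± 0.32 in the bud and 1.27 ± 0.19 in the cap (SD, n = 5), and widened by 1.46 with the same exact permutation p of 0.00794 (adjusted 0.0119). Without E13.5 replicate 1 it widened by 1.34. In both gaps the stages did not overlap. That and the p follow from the separate changes of the genes, whose stages did not overlap either. The 2 epithelial cadherins were not shown to differ in their change. *Cdh1* minus *Cdh3* was 0.96 ± 0.16 in the bud and 0.78 ± 0.17 in the cap, a change of -0.18 (exact permutation p = 0.135, adjusted 0.135). The difference was lower at E14.5 in all 5 same-numbered pairs of arrays (exact sign-flip p = 0.0625, the smallest that 5 pairs allow), although the numbers were not found to pair the arrays. That change passed without E13.5 replicate 1 (-0.24, adjusted exact permutation p = 0.0476) or without E14.5 replicate 4 (-0.25, adjusted exact permutation p = 0.0397).

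**Figure D2:**
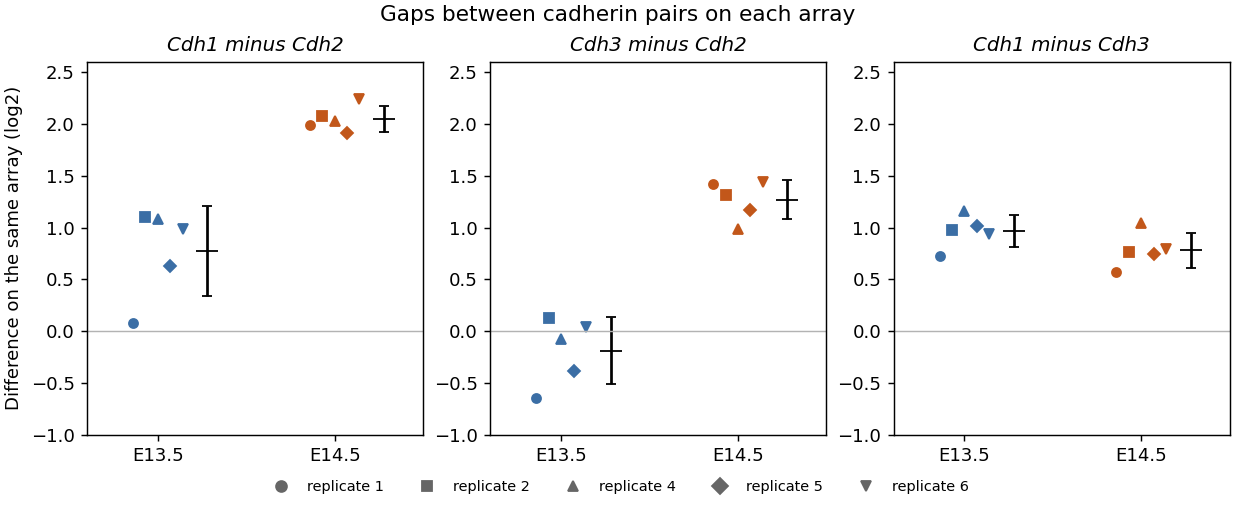
Difference in log2 signal between 2 cadherins on the same array, by stage, for 3 pairs; marker shapes stand for replicate numbers and black bars for the mean ± SD of 5 arrays. The E14.5 arrays lie above all E13.5 arrays for *Cdh1* minus *Cdh2* and *Cdh3* minus *Cdh2*, and the stages overlap for *Cdh1* minus *Cdh3*.

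*Nectin1* (ENSMUSG00000032012) encodes an adhesion protein of adherens junctions that is tied to actin through afadin. The study puts it in its tissue category, genes whose null mutants have defective enamel or dentine. The signals were 6.74, 7.22, 7.26, 7.19 and 7.38 on E13.5 replicates 1, 2, 4, 5 and 6, and 7.50, 7.72, 7.52, 7.70 and 7.84 at E14.5. The highest bud stage array and the lowest cap stage array were close to each other. The rise of 0.50 ± 0.12 (SE, limma adjusted p = 0.0218), or 1.41-fold, was the one most often lost. Without E13.5 replicate 1 it was 0.39, its lowest value when single arrays were left out, and was kept (limma adjusted p = 0.0196). It did not pass without E13.5 replicate 5 (0.51) or without E14.5 replicate 2 (0.48), 5 (0.49) or 6 (0.45), with limma adjusted p from 0.0519 to 0.0662.

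*Epcam* (ENSMUSG00000045394) encodes a surface protein carried by most simple and embryonic epithelia, and is widely used to mark epithelial cells. It differed from the other genes in its spread. At E13.5 the signals were 8.07, 8.08, 8.14, 8.05 and 8.20, and at E14.5 they were 9.19, 8.79, 8.46, 8.39 and 8.64, in the order of replicates 1, 2, 4, 5 and 6. The SD was 0.063 at the bud stage and 0.32 at the cap stage, where replicate 1 was the highest array. The rise was 0.58 ± 0.13 (SE, limma adjusted p = 0.0172), or 1.498-fold. It lay at the threshold without E13.5 replicate 5 (0.57, limma adjusted p = 0.0501), and was 0.46 and kept without E14.5 replicate 1. Without E13.5 replicate 1 it was 0.57 (limma adjusted p = 0.0405).

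Desmosomes are the junctions that anchor keratin filaments, and both desmosome genes rose. *Dsp* (ENSMUSG00000054889) encodes desmoplakin, the plaque protein that binds keratin. It read 9.28, 9.63, 9.74, 9.45 and 9.69 on E13.5 replicates 1, 2, 4, 5 and 6, and 10.30, 10.35, 10.23, 10.16 and 10.35 at E14.5. Again replicate 1 was the lowest at the bud stage. The rise of 0.72 ± 0.092 (SE, limma adjusted p = 0.000477), or 1.65-fold, had the smallest adjusted p of the 8 genes. Without E13.5 replicate 1 it was 0.65.

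*Perp* (ENSMUSG00000019851) encodes a membrane protein of desmosomes and is a known target of the epithelial transcription factor p63. It too is in the tissue category of the study. Signals were 9.26, 9.56, 9.85, 9.57 and 9.75 at E13.5, and 10.18, 10.21, 10.24, 10.24 and 10.47 at E14.5. Replicate 6 was set apart from the other cap stage arrays, and replicate 1 was the lowest of the bud stage. The rise was 0.67 ± 0.11 (SE, limma adjusted p = 0.00214), or 1.59-fold, and 0.59 without E13.5 replicate 1.

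*Tjp3* (ENSMUSG00000034917) encodes ZO-3, a scaffold protein at the cytoplasmic side of tight junctions, and belongs to the dispensable category. It had the smallest change of the 8 genes and the narrowest spread. The signals were 5.32, 5.39, 5.39, 5.33 and 5.26 at E13.5 and 5.54, 5.66, 5.57, 5.70 and 5.69 at E14.5. These are slightly above the array medians, and detection above background was not examined here. The rise was 0.30 ± 0.061 (SE, limma adjusted p = 0.0102), or 1.23-fold, and 0.29 without E13.5 replicate 1.

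The sequences before the start sites show what lies ahead of 3 of these rising genes. RefSeq promoters (GRCm38.p6) were at hand for *Epcam*, *Dsp* and *Tjp3*, and the 250 bases before the start of each are printed, 5′ to 3′ on the strand of the gene. Capitals mark 4 motifs on either strand. They are the E-box CACCTG or CAGGTG, which is bound by the Snail and Zeb repressors of E-cadherin, the GC box GGGCGG or CCGCCC, the TATA box TATAAA or TTTATA, and the CCAAT box CCAAT or ATTGG. *Tjp3* has a second start among the RefSeq entries, and the first is shown.
Epcam, chr17:87635729-87635978, plus strand: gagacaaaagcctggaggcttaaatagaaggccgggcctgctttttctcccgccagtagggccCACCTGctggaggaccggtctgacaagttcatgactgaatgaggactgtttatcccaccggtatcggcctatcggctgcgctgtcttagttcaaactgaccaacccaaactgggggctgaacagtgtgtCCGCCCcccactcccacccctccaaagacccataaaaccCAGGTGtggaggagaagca
Dsp, chr13:38151044-38151293, plus strand: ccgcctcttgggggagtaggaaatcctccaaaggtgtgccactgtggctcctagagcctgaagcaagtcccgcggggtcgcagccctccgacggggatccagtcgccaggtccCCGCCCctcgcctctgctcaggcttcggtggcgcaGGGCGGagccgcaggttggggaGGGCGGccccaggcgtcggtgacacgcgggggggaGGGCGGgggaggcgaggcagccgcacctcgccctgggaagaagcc
Tjp3, chr10:81291582-81291831, minus strand: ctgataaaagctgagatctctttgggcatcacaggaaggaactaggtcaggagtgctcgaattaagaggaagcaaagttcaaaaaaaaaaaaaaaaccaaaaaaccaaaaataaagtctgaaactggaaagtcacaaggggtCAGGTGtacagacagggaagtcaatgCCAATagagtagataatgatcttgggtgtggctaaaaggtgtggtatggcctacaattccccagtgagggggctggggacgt

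The 3 stretches differ in composition. *Dsp* is 72.4% G and C with 22 CG pairs, *Epcam* is 56.4% with 8, and *Tjp3* is 43.2% with 2, where the median of 32851 promoter windows of this length is 52.4%. *Dsp* holds 4 GC boxes and none of the other motifs. *Epcam* holds 1 GC box and 2 E-boxes, at 187 and 19 bases before the start. *Tjp3* holds 1 E-box and 1 CCAAT box. The stretch before its second start is 57.2% G and C with 7 CG pairs, and holds 1 E-box and no CCAAT box, so the values of *Tjp3* depend on the start. Over all windows the E-box is present in 17.2%, the GC box in 32.7%, the CCAAT box in 33.8% and the TATA box in 12.4%. A match gives the letters present and does not show that a factor binds there.

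The next question was whether the RNA of proteins that work with the cadherins and junction genes changed as well. Of 29 junction partners listed, 4 had an ID that could be matched. None of the 4 passed the threshold, which 7.85% of all genes passed, and all 4 had higher means at E14.5. With that share, 4 genes cannot show whether junction partners as a group changed. *Ctnna1* (αE-catenin, which links the complex to actin) had means of 8.66 ± 0.077 in the bud and 8.85 ± 0.051 in the cap (SD, n = 5), a difference of 0.19 (limma adjusted p = 0.0883). *Ctnnb1* (β-catenin, which binds the cadherin tail and also carries Wnt signals) differed by 0.10 (limma adjusted p = 0.39). *Tjp1* (ZO-1, the broadly expressed relative of ZO-3) differed by 0.080 (limma adjusted p = 0.627), and *Dst* (dystonin, a plakin of hemidesmosomes) by 0.13 (limma adjusted p = 0.491). The value of *Ctnna1* lay near the threshold, and its stages did not overlap. It passed without E13.5 replicate 1 (0.22, limma adjusted p = 0.0398) and with quantile normalization (0.26, limma adjusted p = 0.0155), among others.

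For 3 pairs chosen after their values were seen, the difference on the same array is given as a description, with no test. *Cdh1* minus *Ctnnb1* went from -1.29 ± 0.28 to -0.74 ± 0.049 (SD, n = 5), a change of 0.55, and *Cdh1* minus *Ctnna1* changed by 0.46, both without overlap of the stages. Without E13.5 replicate 1 these changes were 0.43 and 0.32. *Tjp3* minus *Tjp1* changed by 0.22, and the stages overlapped.

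None of the 4 genes for cadherin processing and contact signalling passed either, where 7.85% of all genes passed, so the same limit holds. *Adam10*, the protease that sheds the outer part of cadherins, differed by -0.018 (limma adjusted p = 0.946). *Rhoa* and *Rock1*, which set actomyosin tension at junctions, differed by -0.16 and -0.023, and *Yap1*, a transcriptional co-activator held back by cell contact, by 0.12 (limma adjusted p from 0.295 to 0.956). Changes of *Adam10* and *Rock1* were near 0 and their signs turned under some alternatives.

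**Figure D3:**
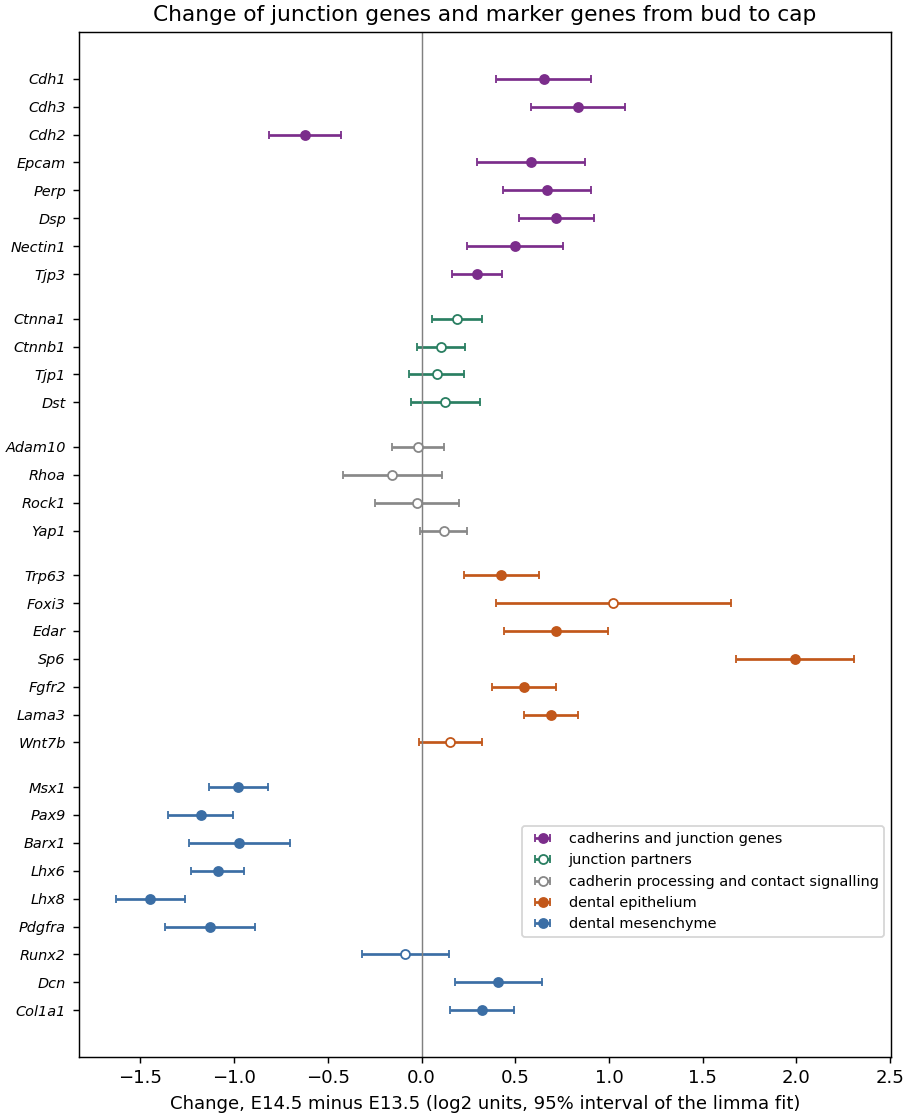
Change from E13.5 to E14.5 in log2 units for the 8 cadherin and junction genes and 4 lists of other genes; points are limma estimates over 10 arrays, bars are 95% intervals, and filled points passed an adjusted p of 0.05. The junction partners and processing genes lie between -0.16 (*Rhoa*) and 0.19 (*Ctnna1*), the dental epithelium markers between 0.15 (*Wnt7b*) and 1.99 (*Sp6*), and 7 of the 9 dental mesenchyme markers lie below 0, 6 of them with filled points.

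Because whole germs were measured, a change in the share of epithelial cells and a change of RNA per cell cannot be told apart. Markers of both tissues moved with the junction genes, and their part in the result was not tested. Of 7 dental epithelium markers, 7 had higher means at E14.5 and 5 passed, with a median change of 0.69. Of all genes, 4.36% passed as higher. The largest rises among the 5 that passed were those of *Sp6* (1.99), an epithelial transcription factor, and *Edar* (0.72), the ectodysplasin receptor. *Lama3* (0.69), a laminin chain of the basement membrane, *Fgfr2* (0.55) and *Trp63* (0.42), which encodes p63, also rose. *Foxi3* (1.02) and *Wnt7b* (0.15) did not pass (limma adjusted p = 0.0513 and 0.326). *Foxi3* lay near the threshold. It passed without E13.5 replicate 1 or 2, with quantile normalization, without dim genes, with array weights, with trend and robust variance settings and with the replicate number as a block (limma adjusted p from 0.00132 to 0.048). *Trp63* did not pass when the replicate number was used as a block (limma adjusted p = 0.0572).

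Of 9 dental mesenchyme markers, 6 fell with a median change of the list of -0.98, where 3.49% of all genes passed as lower. Most of the 6 encode transcription factors of early dental mesenchyme. They were *Lhx8* (-1.45), *Pax9* (-1.18), *Pdgfra* (-1.13), *Lhx6* (-1.09), *Msx1* (-0.98) and *Barx1* (-0.97). *Runx2* differed by -0.086 (limma adjusted p = 0.784). The matrix genes *Dcn* (0.41, limma adjusted p = 0.036) and *Col1a1* (0.32, limma adjusted p = 0.0246) were higher at E14.5. Those 2 calls were fragile. With single arrays left out, *Dcn* lost its call without bud replicate 1, 2 or 5 and without cap replicate 1, 2, 4 or 5 (limma adjusted p up to 0.0933). *Col1a1* lost it without bud replicate 1 or 5 and without cap replicate 2, 4, 5 or 6 (limma adjusted p up to 0.0757).

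The log2 of the summed signal of the epithelial markers ranged from 9.59 to 10.27 at E13.5 and from 10.78 to 10.99 at E14.5, and that of the mesenchymal markers from 11.54 to 11.68 and from 10.88 to 11.01. A sum weighs the brightest genes most. Among the epithelial markers *Foxi3*, which did not pass, had the highest mean at both stages (8.74 and 9.76). The 9.59 was that of E13.5 replicate 1, where *Foxi3* read 7.43. Each gene was also set against the mean log2 signal of the markers on the same array. Relative to the epithelial markers, the change was 0.041 for *Cdh3*, -0.073 for *Dsp*, -0.12 for *Perp*, -0.14 for *Cdh1* and -0.21 for *Epcam*, with overlapping stages. It was -0.29 for *Nectin1* and -0.50 for *Tjp3*, without overlap. These values depended on how the list was summarised and on the genes in it, so no direction is drawn from them. With the median of the markers in place of their mean, the changes of the 7 rising genes were -1.05 to -0.51, and the stages overlapped for *Cdh3* and *Epcam* alone. Relative to the mesenchymal markers, *Cdh2* changed by 0.060 by the mean and 0.19 by the median, with overlap in both, whereas the other 7 genes changed by 0.98 to 1.52 by the mean and 1.11 to 1.64 by the median, without overlap. The values relative to the mesenchymal markers depended on the list too. Its 6 genes that fell changed by -1.45 to -0.97, further than *Cdh2* (-0.62), while *Dcn* and *Col1a1* were higher at E14.5. The relative values are descriptions with no test, and the mean was added after the data were seen.

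**Figure D4:**
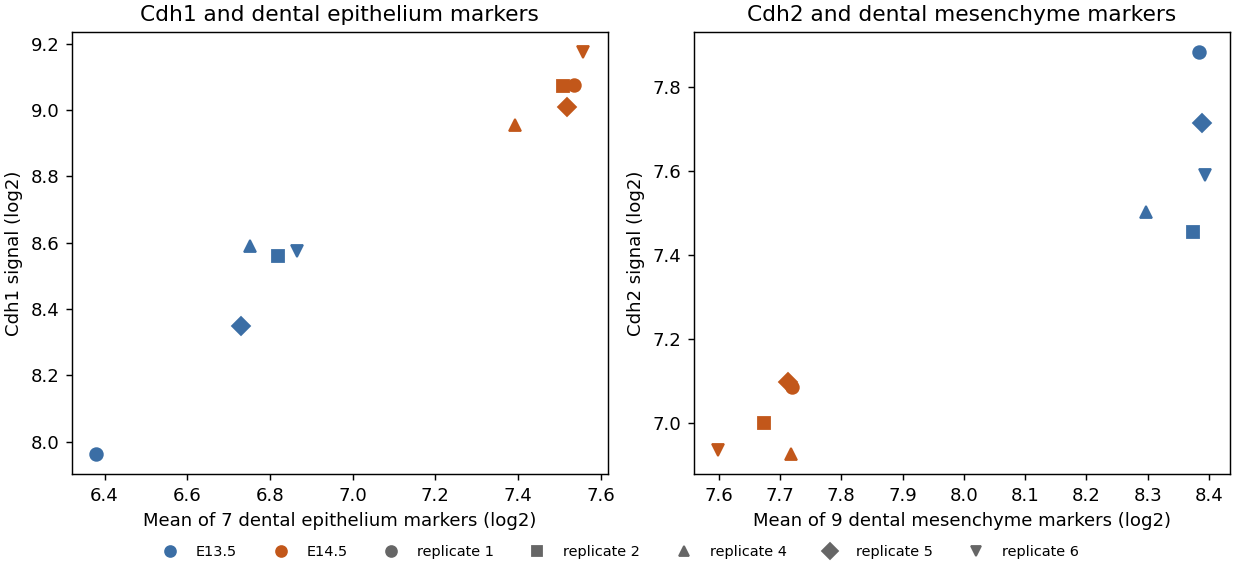
*Cdh1* signal against the mean of 7 dental epithelium markers (left) and *Cdh2* signal against the mean of 9 dental mesenchyme markers (right), log2, for 10 arrays coloured by stage with shapes for replicate numbers. E13.5 replicate 1 has the lowest *Cdh1* and the lowest epithelial mean, as well as the highest *Cdh2*. Its mesenchymal mean, 8.38, lies within the range of the other E13.5 arrays (8.30 to 8.39). Among E13.5 arrays it has the lowest *Msx1*, *Pax9* and *Barx1* but the highest *Pdgfra*, *Lhx8* and *Runx2*.

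How the 8 genes varied among arrays of a stage was described next. Deviations of each gene from its stage mean were correlated over the 10 arrays, which share array-wide effects, so the values are descriptions. Among the 21 pairs of the 7 rising genes the median r was 0.37, from -0.49 (*Epcam* with *Tjp3*) to 0.94, and 18 were above 0. *Cdh1* and *Dsp* varied most closely among the 8 genes (Pearson r = 0.94, Spearman rho = 0.94, and r = 0.87 without the 2 arrays farthest from the median of *Cdh1*). *Cdh1* and *Nectin1* (r = 0.88, rho = 0.78), *Perp* and *Nectin1* (r = 0.86, rho = 0.76) and *Cdh1* and *Perp* (r = 0.86, rho = 0.59) followed, the last being 0.58 without the 2 arrays farthest from the median of *Cdh1*. *Cdh2* varied opposite to *Dsp* (r = -0.83, rho = -0.81) and *Cdh1* (r = -0.83, rho = -0.65), although the latter was -0.54 without the 2 arrays farthest from the median of *Cdh1*. *Cdh1* was less close to *Epcam* (r = 0.23, rho = 0.52) and *Tjp3* (r = 0.19, rho = 0.16), and *Epcam* was nearest to *Cdh3* (r = 0.63, rho = 0.65). With the SD of signals on the array, deviations correlated for *Cdh3* (r = 0.58, rho = 0.55), *Cdh2* (r = 0.53, rho = 0.50) and *Epcam* (r = 0.45, rho = 0.32). For the rest of the 8 genes that r was -0.23 to 0.11. The part of array SD in the likeness of genes was not tested.

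The genes most like each cadherin in these deviations were sought among the 396 genes with a symbol. For *Cdh1* they were *Notch1* (r = 0.95, rho = 0.81), *Dsp* and *Axin1* (r = 0.92, rho = 0.85). For *Cdh3* they were *Akt1* (r = 0.99, rho = 0.99), *Wnt7b* (r = 0.91, rho = 0.85) and *Lrp4* (r = 0.88, rho = 0.82). For *Cdh2* they were *Pdgfra*, a receptor of mesenchymal cells (r = 0.96, rho = 0.93), *Dync2h1* (r = 0.92, rho = 0.87) and *Gab1* (r = 0.91, rho = 0.87). *Epcam* had no gene as close, the nearest being *Ikbkg* (r = 0.82, rho = 0.68), *Mapk14* (r = 0.82, rho = 0.71) and *Apc* (r = 0.78, rho = 0.54). Without the 2 arrays farthest from the median of *Epcam*, r was 0.65 for *Ikbkg*, 0.81 for *Mapk14* and 0.42 for *Apc*. The highest of 395 correlations is high by selection alone.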

How the data were processed

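Array normalization was done by the authors with the aroma.affymetrix package and a custom Brainarray probe grouping that has 1 probe set per Ensembl gene. The deposited values ran from 1.30 to 12.83 and were read as log2 signals. The log base, background correction and summary model are not given in the sources used here. Symbols came from the study's gene tables, and those of *Cdh1*, *Cdh2*, *Epcam* and *Dsp* from the ID given with the gene choice. The genes and lists were chosen with earlier results of these data known. Lists for endothelium, erythroid cells, muscle, nerve and macrophages (5 lists) had no gene with an ID and were not tested. Most of the listed junction partners had no ID either. Some genes of the other lists are not reported here and were left out of all list values.

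The 5 arrays of each stage were compared by a linear model per gene (lmFit, then eBayes, from limma 3.58.1 under R 4.3.3), with stage as the single term and p-values two-sided. Adjustment was by Benjamini-Hochberg across the 27528 genes, and the threshold was 0.05. Gaps were tested exactly over all splits of the 10 arrays into 5 and 5. Named genes are the 8 genes, every gene of the lists with an ID, and the 3 genes most like *Cdh1*, *Cdh3*, *Cdh2* and *Epcam*. On simulated data with 200 genes changed by 1 log2 unit, limma recovered 90.0% with 8 calls among unchanged genes. The simulated noise was drawn separately for each gene, without array-wide effects. The 8 genes of interest changed by less, from 0.30 to 0.83 in size, so that recovery does not describe them. Python 3.11.15 with scipy 1.17.1 was used for permutations. Alternatives were other normalizations, a filter on dim genes, array weights, other variance settings, array SD as covariate, the replicate number as a block, and leaving out each array. The number of arrays limits the precision.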

Additional observations from a re-analysis of the deposited data

Results flagged for a closer look

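The signals of the 8 genes and the 24 list genes, and the 3 cadherin gaps, were looked at by stage, which gave 70 sets of 5 arrays. In 5 sets a single array lay far out, separated from its nearest neighbour by more than 0.71 of the full range. About 1 in 20 sets, here 3.5, would do so by chance. One of the 8 genes was among them. For *Perp* it was E14.5 replicate 6, with 10.47 where the remaining cap stage arrays had 10.18 to 10.24. On E13.5 replicate 1, *Ctnna1* was higher, at 8.79 against 8.61 to 8.64, while *Foxi3* was lower, at 7.43 against 8.84 to 9.18. *Foxi3* was also high on E14.5 replicate 6 (10.0001, with 9.68 to 9.71 elsewhere). *Lhx6* read 7.999 on E13.5 replicate 4, against 8.14 to 8.17.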

How the results depend on the processing

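For the 8 genes, 131 of 136 alternatives kept direction and call, 5 lost the call (all by leaving out 1 array, for *Nectin1* and *Epcam*) and none changed sign. At an adjusted p under 0.01, 5 of the 8 genes passed (*Cdh1*, *Cdh3*, *Cdh2*, *Perp* and *Dsp*), as did 1155 of all genes. Array weights raised the count over all genes from 2162 to 3911, and leaving out single arrays gave 1479 to 2554 genes and 6 to 8 of the 8 genes. Same-numbered arrays did not deviate together in all pairs (correlations of -0.079 to 0.51), and only numbers 1 and 4 had both arrays closest to each other. With the replicate number as a block, limma called 2077 genes and all 8 of these genes. The exact sign-flip test over 5 pairs cannot go below 0.0625, so the gaps of 1.27 and 1.46 against *Cdh2* could not pass it, nor could *Cdh1* minus *Cdh3*, which also gave 0.0625. The gap of *Cdh1* minus *Cdh3* changed by -0.25 to -0.13 when single arrays were left out. For the 24 list genes, 373 of 408 alternatives were kept, 15 lost a call, 12 gained one and 8 changed sign, all 8 in genes with no call. *Adam10* was 0.029 with quantile normalization and -0.055 to 0.013 when single arrays were left out. *Runx2* was -0.13 to 0.014 in the latter case. *Rock1* was 0.015 with quantile normalization, 0.013 with array SD as covariate, and -0.10 to 0.042 when single arrays were left out. The causes were not tested. Alternatives for genes outside the 8 were added after the data were seen. None were run for genes named only for their likeness to a cadherin or to *Epcam*. Signal over background was not examined.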
